A study of Mus musculus with 18 samples.

Results

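The PPAR, PGC-1 and ERR metabolic regulators are a set of transcription factors and coactivators that control genes of fatty acid oxidation and of mitochondria. The set was chosen by name and has 10 members: Ppara, Ppard, Pparg, Ppargc1a, Ppargc1b, Esrra, Esrrb, Esrrg, Nrf1 and Tfam. All 10 were found by their Ensembl identifiers among the 30583 genes of the count table, and all 10 passed the filter on low counts, which kept 16311 genes. RNA had been sequenced from 18 male C57BL/6JR mice, 12 weeks old, in 6 groups of 3. In 5 groups a ligature closed the left anterior descending coronary artery under sodium pentobarbital, which causes a myocardial infarction, and the mice were killed under isoflurane: the first group at 10 min, the others at 1, 6, 24 and 72 h. The sham mice (0 h) had the same anaesthesia and operation, with a suture passed and left untied. This 1 sham group served all 5 ligated groups. Time since the operation and anaesthesia thus cannot be told apart from ligation. RNA came from the myocardium of the left ventricle, in ligated mice from its infarcted part. The labels call the cell type cardiomyocytes, yet no cell separation is described, so the libraries were read as whole tissue. The series title asks how gene expression changes as an infarction progresses, and the comparisons below follow the regulators along that course.

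The heart makes most of its ATP in mitochondria, largely from fatty acids. PPARA, PPARD and PPARG are nuclear receptors that bind fatty acids and their derivatives, pair with an RXR receptor and switch on genes of lipid uptake and oxidation. PGC-1α (Ppargc1a) and PGC-1β (Ppargc1b) do not bind DNA themselves. They are coactivators that dock on PPARs, on the estrogen-related receptors ERRα, ERRβ and ERRγ (Esrra, Esrrb, Esrrg) and on nuclear respiratory factor 1 (Nrf1). The ERRs are orphan receptors that drive genes of the tricarboxylic acid cycle and the respiratory chain. NRF1 drives nuclear genes for respiratory subunits and for TFAM, which packages mitochondrial DNA and starts its transcription.

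Letters that NRF1 binds stood in the promoters of 2 members, and these are shown because they link members of the set by sequence. In RefSeq windows (GRCm38.p6) from 250 bases before to 50 bases after the annotated start, 9 of the 10 members were matched, with 16 windows. The NRF1 letters GCATGCGC, searched on both strands, were in 2 of these 16 windows and in 2.71% of all 32851 windows. The stretches below run 5′ to 3′ on the gene's strand, with the matching letters in capitals. In Ppara the capitals cover overlapping matches on both strands.
Ppara, chr15:85735725-85735774 (plus strand): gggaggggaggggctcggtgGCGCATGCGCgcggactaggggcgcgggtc
Esrra, chr19:6921815-6921862 (minus strand): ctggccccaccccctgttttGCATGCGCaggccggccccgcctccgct
Relative to the RefSeq start, the Ppara stretch spans bases -51 to -2 and the Esrra stretch bases -54 to -7. The ERR element TCAAGGTCA (0.423% of all windows) and its core AAGGTCA (4.72%, which counts every ERR element too) were in 0 of the 16 member windows. The PPAR and RXR element DR1 (0.0396%), the cAMP response element TGACGTCA (1.79%) and the E-box CACGTG (7.15%) were also in 0 of them. A match is a description of letters, and binding was not measured here.

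Among genes listed as targets of these regulators, the same NRF1 letters were in 5 of 30 matched windows of ERR and PGC-1 targets, namely those of Cycs, Ogdh, Sdhb and Uqcrc1. They were in 2 of 17 windows of factors for mitochondrial DNA (Polrmt, Tfb2m) and in 2 of 25 windows of PPAR targets (Acadm, Etfdh). In these 3 lists, in the same order, the cAMP response element (1.79% of all windows) was in 6, 2 and 0 windows. The E-box (7.15%) was in 4, 0 and 1, and the ERR core (4.72%) in 1 of each. The full ERR element and DR1 were in 0 windows of every list. A stretch with the NRF1 letters from each list is shown, for genes whose levels are given below.
Cycs (cytochrome c), chr6:50566602-50566649 (minus strand): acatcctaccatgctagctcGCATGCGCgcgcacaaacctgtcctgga
Polrmt (mitochondrial RNA polymerase), chr10:79746687-79746734 (minus strand): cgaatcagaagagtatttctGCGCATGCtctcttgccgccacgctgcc
Acadm (medium-chain acyl-CoA dehydrogenase), chr3:153944774-153944821 (minus strand): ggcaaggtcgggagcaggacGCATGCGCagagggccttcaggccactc

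Libraries held 18.2 to 25.1 M counts (M for mega), and levels are given as counts per M counts (CPM) after TMM scaling, which evens out differences in library make-up. The summed level of 10 cardiomyocyte markers was 75000 to 81100 CPM in sham, and 32700, 48800 and 51500 CPM at 24 h, the lowest in replicate 3. At 72 h it was 19500 to 25800 CPM, or 28.2% of the sham mean, with all 10 markers called lower. Macrophage markers summed to 268 to 310 CPM in sham and 3580 to 4660 CPM at 72 h (8 of 8 higher), and fibroblast markers to 805 to 915 and 12500 to 16100 CPM (8 of 8 higher). Neutrophil markers rose from 5.37 to 7.57 CPM in sham to 269 to 927 CPM at 6 h (8 of 8 higher), with Ly6g at 0 in all sham libraries. Endothelial markers fell to 67.1% of sham at 72 h (6 of 8 lower). Of all genes tested, 16.3% were called higher at 6 h. At 72 h 66.4% were called, 34.2% higher and 32.2% lower. Replicate 1 at 6 h stood apart in the atrial genes Sln and Bmp10. It held 715 and 355 counts of them, against at most 8 and 1 in any other library. The summed level of the 5 atrial genes listed did not set it apart. This sum was 563 CPM in that library, 562 to 810 CPM at 24 h and 572 to 648 CPM at 72 h. In whole tissue, fewer cells of a type and less RNA per cell cannot be told apart, and the part of these shifts in the results below was not tested.

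Across the course, 8 of the 10 regulators ended below sham at 72 h, 1 ended above it, and 1 did not pass the test. A gene was called where edgeR's quasi-likelihood test gave a Benjamini-Hochberg adjusted p under 0.05 over all genes tested. No member was called at 10 min (0.0736% of all genes were called) or at 1 h (0.294%), with 2 and 1 members at an unadjusted p under 0.05, and DESeq2 called 0 at both times. At 6 h, 3 members were higher and 1 lower, against 28.4% of all genes called. At 24 h, 1 was higher and 4 were lower, against 43.8% of all genes. At 72 h, 1 was higher and 8 were lower, against 66.4% of all genes called, 34.2% higher and 32.2% lower. The count at 6 h was 2 without sham replicate 2, sham replicate 3 or replicate 1 at 6 h, and that at 24 h was 1 without replicate 3 at 24 h. All 10 members had 72 h values wholly outside the sham values, as did 75.8% of all genes tested. The median member log2 change against sham was 0.14 at 10 min, 0.19 at 1 h, -0.05 at 6 h, -0.34 at 24 h and -0.98 at 72 h, while the median of all genes lay between -0.01 and 0.03. An F test over the 6 groups called all 10 members, as it did 78.4% of all genes, with edgeR adjusted p from 3.31e-07 (Esrra) to 0.0116 (Nrf1).

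**Figure D1:**
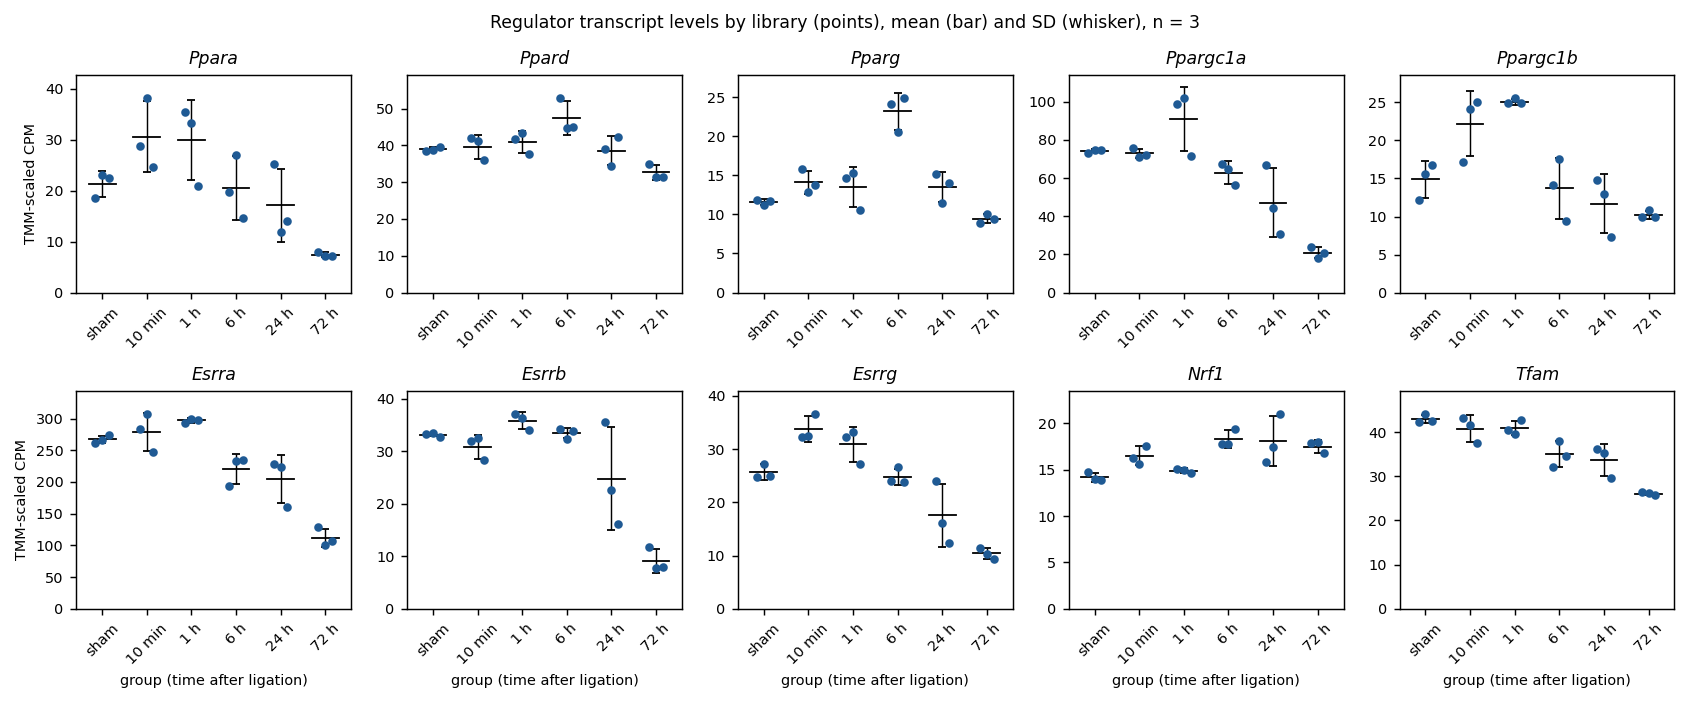
Levels of the 10 regulators in each library (TMM-scaled CPM, y axis from 0 with an own scale for each gene) in each group (x axis), with 1 point per mouse, a bar for the mean and a whisker for the SD (n = 3). Pparg peaks at 6 h with 20.5 to 24.9 CPM, Nrf1 stays above its sham values from 6 h on, and Ppargc1a, Esrra, Esrrb and Esrrg are lowest at 72 h.

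With TMM scaling, most of the called falls between consecutive times were in the last interval. From 24 to 72 h, 8 members fell and 0 rose, while 50.5% of all genes were called. Between 6 and 24 h, 3 fell and 0 rose (27.8% of all genes called), and between 1 and 6 h, 2 rose and 2 fell (24.5%). These counts dropped to 1 without replicate 2 at 24 h and to 2 without replicate 2 at 1 h or replicate 1 at 6 h. Nrf1, a rise of 0.3 from 1 to 6 h, passed narrowly (edgeR adjusted p = 0.0406). Its call was lost without any 1 sham, 1 h or 6 h library, and under library total scaling (0.22, edgeR adjusted p = 0.208). Leaving out replicate 1 at 10 min or replicate 1 or 3 at 72 h also lost it (edgeR adjusted p = 0.0504 to 0.052). So did no filter on low counts (edgeR adjusted p = 0.151), a fit of the 6 libraries compared (edgeR adjusted p = 0.0732) and limma on FPKM (adjusted p = 0.251 and 0.278). Between 10 min and 1 h no member was called (0.307% of all genes), 0 members had an unadjusted p under 0.05, and DESeq2 called 0. Under scaling by library totals alone, the median log2 change of all genes against sham was 0.61 at 72 h, 0.2 at 24 h and -0.12 at 6 h. By TMM it was 0.03, 0.01 and -0.01. Mitochondrial transcripts held 22.3 to 27.4% of counts up to 6 h and 8.41 to 10.5% at 72 h. From 6 to 72 h, a comparison added after the data were seen, 8 members fell and 0 rose, while 63% of all genes were called. Of the genes called, the higher ones made up 51.4% at 72 h by TMM and 79.9% by library totals, 54% and 75.5% at 24 h, and 57.2% and 40.6% at 6 h. For the steps these shares were 59.2% and 45.7% from 1 to 6 h, 50.9% and 88% from 6 to 24 h, and 48.4% and 81.5% from 24 to 72 h. By library totals, 5 members were called lower and 2 (Ppard and Nrf1) higher at 72 h. At 6 h the calls of Ppard and Nrf1 were then lost and Esrra was called lower, and at 24 h the calls of Esrra, Esrrg and Tfam were lost and Pparg was called higher. For the steps, library totals called Ppara, Ppargc1a, Esrra and Esrrb lower and Nrf1 higher from 24 to 72 h. From 1 to 6 h they called Ppargc1a, Ppargc1b, Esrra and Tfam lower and Pparg higher, and from 6 to 24 h Pparg lower. By library totals, most of the called falls were thus not in the last interval.

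PPARA is the PPAR most tied to fatty acid oxidation in heart muscle, and its gene lies at chr15:85734983-85802819 on the plus strand (mm10, as all gene positions here). Ppara stood at 18.5, 23.1 and 22.4 CPM in sham. It measured 28.8, 38.2 and 24.7 CPM at 10 min, then 35.5, 33.3 and 21 CPM at 1 h. The 10 min values all lay above sham, while the 1 h values overlapped it, and neither difference was called. At 6 h Ppara measured 19.7, 27 and 14.7 CPM, and at 24 h 25.2, 11.8 and 14.1 CPM, both overlapping sham. The 72 h values of 8.01, 7.09 and 7.13 CPM were lower than those of all earlier libraries. Ppara thus fell by 1.52 on the log2 scale against sham (SE 0.29, edgeR adjusted p = 0.000247), to 34.8% of the sham mean. The step from 24 to 72 h accounted for a log2 change of -1.2, also called.

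PPARD, which is expressed in most tissues and also drives oxidation genes in muscle, had small changes in both directions. Ppard (chr17:28232700-28301474, plus strand) was at 38.5, 38.8 and 39.6 CPM in sham and overlapped these values at 10 min (41.9, 41.2 and 35.9 CPM) and 1 h (41.6, 43.4 and 37.7 CPM). At 6 h all 3 libraries were higher, at 52.9, 44.7 and 45 CPM. At 24 h the values of 38.9, 34.5 and 42.4 CPM overlapped sham again, and at 72 h they were lower in all libraries, at 35, 31.5 and 31.5 CPM. The log2 change was 0.29 at 6 h (SE 0.1, edgeR adjusted p = 0.0366) and -0.25 at 72 h (SE 0.1, edgeR adjusted p = 0.0284). Both are small. The 6 h call was lost without sham replicate 1, 2 or 3 or replicate 1 at 6 h (edgeR adjusted p = 0.0769 to 0.193), and under library total scaling (0.17, edgeR adjusted p = 0.184). The 72 h call was lost without sham replicate 2 or 3 or replicate 2 or 3 at 72 h (edgeR adjusted p = 0.0515 to 0.0895), and its direction reversed to 0.33 under library total scaling.

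PPARG, best known as the regulator of fat cell formation and also active in macrophages and endothelium, had the largest called rise of the set. Pparg (chr6:115360951-115490399, plus strand) stood at 11.9, 11.2 and 11.7 CPM in sham, and at 15.8, 12.9 and 13.7 CPM at 10 min. At 1 h it measured 14.7, 15.3 and 10.5 CPM. At 6 h it reached 24.1, 20.5 and 24.9 CPM, above every library of any other time. The level was 200% of sham, a log2 change of 1.00 (SE 0.14, edgeR adjusted p = 6.23e-05), and the call held in all 18 fits that left out 1 library (log2 change 0.94 to 1.08). At 24 h Pparg was back to 15.1, 11.5 and 14 CPM, a step of -0.78 from 6 h (edgeR adjusted p = 0.000592). At 72 h it measured 8.9, 10.1 and 9.36 CPM, below all sham values, but the change of -0.29 against sham was not called (SE 0.14, edgeR adjusted p = 0.0727). Under library total scaling it was 0.29, also not called (edgeR adjusted p = 0.065), and the change at 24 h, 0.22 and not called, was 0.41 and called (edgeR adjusted p = 0.0214).

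Fat cell genes were set beside Pparg because PPARG is abundant in fat cells. The fat cell genes Adipoq, Plin1, Cidec, Lep and Retn had between 0 and 9 counts in any library and were too low to test, with Lep at 0 in all sham libraries and Lep and Cidec at 0 in all 72 h libraries. Fabp4, a PPARG target that capillary endothelium also makes, rose from 703, 693 and 655 CPM in sham to 1220, 1160 and 1430 CPM at 6 h (log2 change 0.9, SE 0.11, edgeR adjusted p = 2.08e-05). It then fell to 405, 344 and 358 CPM at 72 h, below sham. Lipe, hormone-sensitive lipase, took the same course, from 37.2, 39.9 and 33.3 CPM to 64.5, 61.3 and 87.2 CPM at 6 h and 18.6, 18 and 17 CPM at 72 h. The summed level of the 8 listed fat cell genes was 688 to 741 CPM in sham, 1220 to 1520 at 6 h and 362 to 424 at 72 h. Of the 3 tested (Fabp4, Lipe and Cfd), 2 were called higher at 6 h and 2 lower at 72 h, beside 16.3% and 32.2% of all genes. At an unadjusted p under 0.05 were 3 at 6 h and 2 at 72 h. Cfd, which added little to the sum, had the largest log2 changes of the 3, 2.27 at 6 h and -1.69 at 72 h. Endothelial markers summed to 110% of sham at 6 h, macrophage markers to 108% and neutrophil markers to 8500%. Of 8 endothelial markers, 2 were called higher and 2 lower at 6 h, and of 8 macrophage markers 2 higher and 1 lower. The part of cell make-up in the levels of Pparg and the fat cell genes was not tested.

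The proportions of the PPARs were read as ratios within a library, of levels divided by the deposited gene lengths (FPKM). The log2 ratio of Pparg over Ppara was -0.5 ± 0.21 in sham (SD, n = 3), 0.6 ± 0.58 at 6 h and 0.73 ± 0.18 at 72 h, with no overlap with sham at either time. That of Ppard over Ppara was 0.61 ± 0.16 in sham and 1.87 ± 0.01 at 72 h, again without overlap. The size of this ratio depends on the length used for Ppard, while the difference between groups does not. With GENCODE M21 exon unions as lengths, tried after the data were seen, Ppard was below Ppara in sham, at 5.19 and 5.56 FPKM. An exact two-sided permutation test of 3 against 3 libraries cannot give a p below 0.1. This exact permutation test gave p = 0.1 for these ratios, with an adjusted p = 0.25 over the 20 ratio tests made.

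PGC-1α falls when heart muscle fails and rises with cold, fasting and exercise in muscle. Ppargc1a (chr5:51454250-51567726, minus strand) was at 73.2, 74.9 and 74.9 CPM in sham, 75.7, 71.1 and 72.2 CPM at 10 min, and 98.7, 102 and 71.5 CPM at 1 h. At 6 h it measured 67.6, 64.8 and 56.1 CPM, below all sham values, but the change of -0.24 was not called. At 24 h it spread widely, at 66.6, 44.2 and 30.5 CPM. Ppargc1a ended at 23.9, 18.1 and 20.6 CPM at 72 h, or 28% of sham. The log2 change was -0.66 at 24 h (SE 0.2, edgeR adjusted p = 0.0143) and -1.84 at 72 h (SE 0.2, edgeR adjusted p = 8e-07). The 24 h call was lost without replicate 3 at 24 h (-0.42, edgeR adjusted p = 0.0515), the library with the lowest cardiomyocyte marker sum.

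PGC-1β shares many targets with PGC-1α. Ppargc1b was at 12.2, 15.6 and 16.8 CPM in sham and at 17.2, 24.1 and 25.1 CPM at 10 min, all above sham but not called. At 1 h it stood at 24.9, 25.6 and 24.9 CPM, above all sham values and at 169% of their mean. The log2 change of 0.75 at 1 h (SE 0.23) was not called in the fit of all 18 libraries (edgeR adjusted p = 0.411), and was called when the 6 libraries compared were fitted alone (edgeR adjusted p = 0.0013). At 6 h it was back at 14.1, 17.5 and 9.43 CPM, a called fall of 0.88 on the log2 scale from 1 h (edgeR adjusted p = 0.0108). Values at 24 h were 14.8, 13 and 7.32 CPM, and at 72 h 9.9, 10.8 and 9.9 CPM, the latter below all sham values. The 72 h change of -0.55 passed narrowly (SE 0.23, edgeR adjusted p = 0.0447), held in 9 of 18 fits without 1 library, and had the opposite sign, 0.04, under library total scaling. Losses followed from leaving out sham replicate 2 or 3, replicate 2 at 10 min, any 1 h library or any 72 h library (edgeR adjusted p = 0.0511 to 0.144).

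The proportion of the coactivators was read in the same way. The log2 ratio of Ppargc1b over Ppargc1a was -1.61 ± 0.23 in sham (SD, n = 3) and -0.3 ± 0.26 at 72 h, without overlap (exact permutation p = 0.1, the smallest possible, adjusted p = 0.25). In CPM, which is not corrected for length, Ppargc1a was at 28% of its sham mean and Ppargc1b at 68.5% by then.

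**Figure D2:**
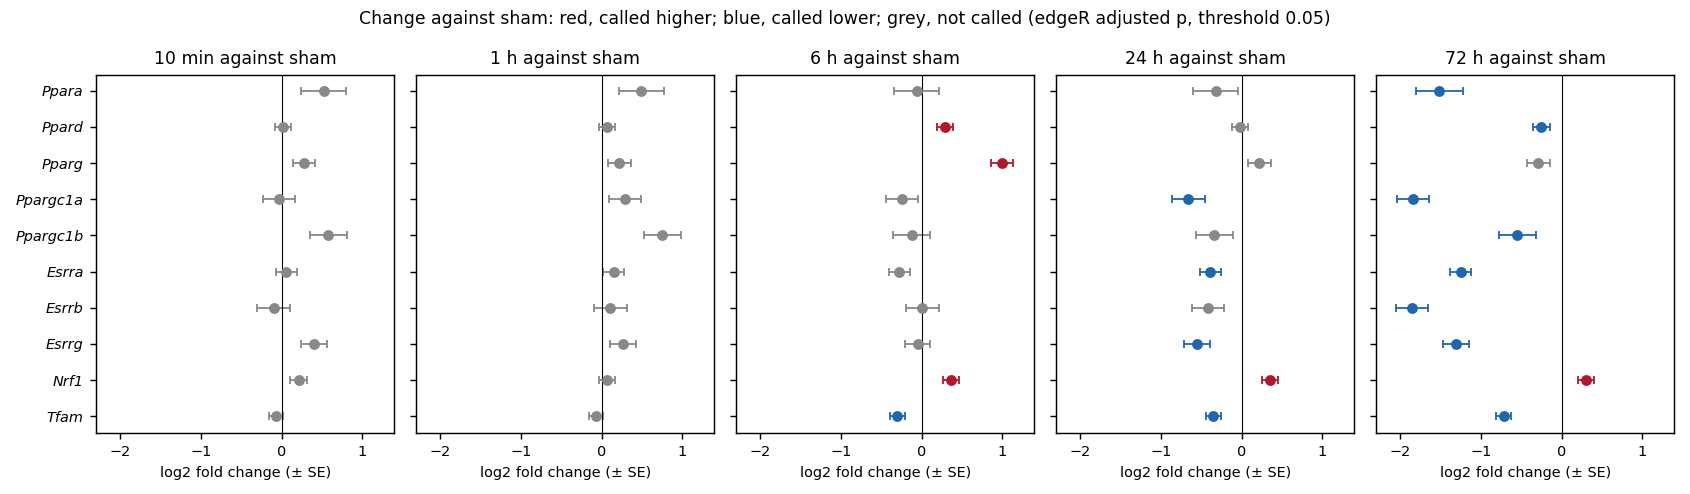
Log2 fold change of each regulator against sham (edgeR, x axis, bars of 1 SE) in 5 panels for 10 min, 1, 6, 24 and 72 h, with red points called higher, blue called lower and grey not called. Points at 72 h lie left of 0 for all members except Nrf1, from -1.86 for Esrrb to -0.25 for Ppard, and Ppard, Pparg and Ppargc1b have the opposite sign under library total scaling.

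ERRα is the ERR with the highest transcript level in these libraries. Esrra (chr19:6910977-6921813, minus strand, overlapping Trmt112 on the other strand) was at 262, 266 and 274 CPM in sham, 284, 307 and 247 CPM at 10 min, and 293, 300 and 297 CPM at 1 h. The 1 h values lay above sham by a log2 change of 0.15 that was not called. At 6 h the level was 193, 233 and 234 CPM, below every sham library, with a called fall of 0.43 from 1 h (edgeR adjusted p = 0.0208). This step was lost without replicate 2 or 3 at 1 h or replicate 1 at 6 h (edgeR adjusted p up to 0.11). Values of 228, 223 and 160 CPM at 24 h and 129, 101 and 107 CPM at 72 h followed. Against sham the log2 change was -0.39 at 24 h (SE 0.13, edgeR adjusted p = 0.0197) and -1.25 at 72 h (SE 0.13, edgeR adjusted p = 1.27e-07), 42% of sham. Reads from Trmt112 and Esrra cannot be told apart where they overlap if strand was not used in counting, which is not given in the sources used here.

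ERRβ, known best from embryonic stem cells and the placenta, was not called at any time up to 24 h. Esrrb (chr12:86361117-86521628, plus strand) was at 33.3, 33.5 and 32.8 CPM in sham, 31.9, 32.5 and 28.3 CPM at 10 min, 37.1, 36.3 and 34 CPM at 1 h, and 34.2, 32.4 and 33.9 CPM at 6 h. At 24 h it ranged from 35.6 CPM, above sham, to 22.7 and 16.2 CPM, and the change of -0.42 was not called (edgeR adjusted p = 0.0987). At 72 h it was at 11.8, 7.76 and 7.86 CPM, or 27.5% of sham, a log2 change of -1.86 (SE 0.2, edgeR adjusted p = 5.15e-07). Without replicate 1 at 24 h, the 24 h change was called (-0.75, edgeR adjusted p = 0.000751).

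ERRγ, which is enriched in tissues with high energy use such as heart, was called lower at 24 and 72 h. Esrrg (chr1:187608791-188214885, plus strand) was at 24.8, 27.3 and 25 CPM in sham and higher in all 3 libraries at 10 min, at 32.3, 32.5 and 36.6 CPM. This difference of 0.40 was not called in the fit of all libraries. At 1 h it stood at 32.3, 33.2 and 27.2 CPM, and at 6 h at 24.1, 26.6 and 23.9 CPM, which overlapped sham. It then fell to 24, 16.2 and 12.4 CPM at 24 h and to 11.5, 10.3 and 9.32 CPM at 72 h. The log2 change was -0.55 at 24 h (SE 0.16, edgeR adjusted p = 0.0111) and -1.31 at 72 h (SE 0.16, edgeR adjusted p = 1.39e-06), 40.3% of sham.

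For the ERRs, 1 library carried much of the 24 h result. Replicate 3 at 24 h had the lowest Esrra, Esrrb, Esrrg, Ppargc1a, Ppargc1b and Tfam of its group. Without it, the 24 h change was -0.24 for Esrra (edgeR adjusted p = 0.115) and -0.35 for Esrrg (edgeR adjusted p = 0.0593), both no longer called, and the number of members called at 24 h dropped from 5 to 1. Esrra at 24 h was also lost without sham replicate 3 (edgeR adjusted p = 0.0578). Under library total scaling the 24 h changes of Esrra (-0.2, edgeR adjusted p = 0.239) and Esrrg (-0.36, edgeR adjusted p = 0.0659) were not called either, while Esrra at 6 h was called (-0.39, edgeR adjusted p = 0.0348). The log2 ratio of Esrrg to Esrra was read from FPKM with the deposited lengths, and its size depends on the length used for Esrra. The ratio was -4.67 ± 0.09 in sham, -4.33 ± 0.26 at 10 min, -4.43 ± 0.15 at 6 h, -4.86 ± 0.29 at 24 h and -4.72 ± 0.12 at 72 h (SD, n = 3). Its 10 min values lay above sham (exact permutation p = 0.1, the smallest possible, adjusted p = 0.25), and the 72 h values overlapped it. Cardiomyocyte markers stood at 57% of sham at 24 h and 28.2% at 72 h, and the part of this shift in the fall of the ERR and PGC-1 transcripts was not tested.

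**Figure D3:**
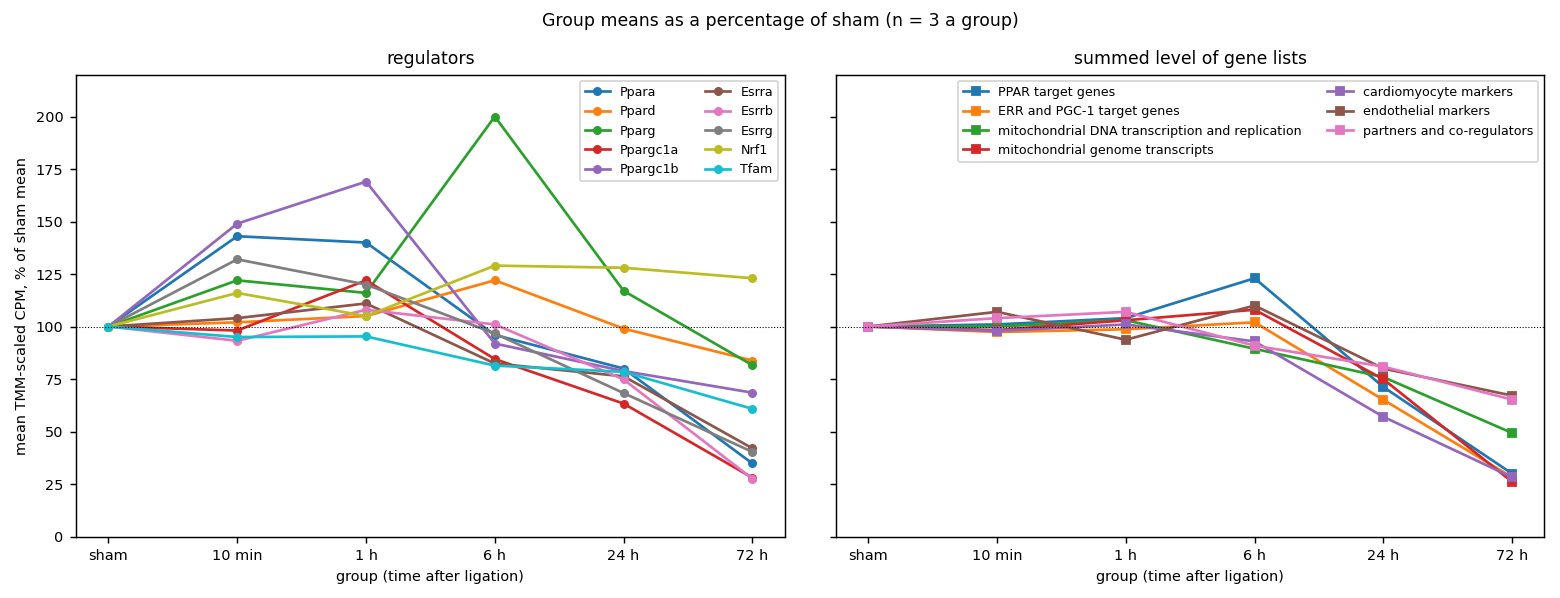
Group means of TMM-scaled CPM as a percent of the sham mean (y axis) in each group (x axis), for the regulators in the left panel and for the summed level of gene lists in the right. Pparg reaches 200% at 6 h and Ppargc1b 169% at 1 h, and Esrrb and Ppargc1a are at 27.5% and 28% at 72 h, when the cardiomyocyte marker sum is at 28.2%.

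Nrf1 was the member called higher at 6, 24 and 72 h. The gene (chr6:30047988-30153458, plus strand) was at 14.8, 14 and 13.9 CPM in sham, 16.3, 15.6 and 17.6 CPM at 10 min, and 15.1, 15 and 14.6 CPM at 1 h. It rose to 17.8, 17.8 and 19.4 CPM at 6 h, stayed at 15.8, 17.5 and 21 CPM at 24 h, and measured 17.9, 18 and 16.8 CPM at 72 h. All 9 libraries from 6 h on lay above all sham libraries. The log2 change was 0.37 at 6 h (SE 0.1, edgeR adjusted p = 0.0117), 0.35 at 24 h (SE 0.1, edgeR adjusted p = 0.00955) and 0.30 at 72 h (SE 0.1, edgeR adjusted p = 0.0128). The 6 h and 72 h calls held in all 18 fits that left out 1 library, and the 24 h call was lost without replicate 3 (0.24, edgeR adjusted p = 0.0759). The 6 h call of Nrf1 was lost under library total scaling (0.26, edgeR adjusted p = 0.112), with no filter on low counts (0.36, edgeR adjusted p = 0.0574) and with limma on FPKM (adjusted p = 0.149 and 0.171). Macrophage markers stood at 1420% and fibroblast markers at 1640% of sham at 72 h, and their part in the Nrf1 level was not tested.

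Tfam was called lower at 6, 24 and 72 h. The gene (chr10:71225464-71238280, minus strand) was at 42.2, 44.1 and 42.6 CPM in sham, 43.3, 41.6 and 37.5 CPM at 10 min, and 40.6, 39.5 and 42.7 CPM at 1 h. It was lower in every library from 6 h on: 32.2, 38.1 and 34.6 CPM at 6 h, 36.2, 35.3 and 29.6 CPM at 24 h, and 26.4, 26.3 and 25.7 CPM at 72 h. The log2 change was -0.30 at 6 h (SE 0.09, edgeR adjusted p = 0.0206), -0.35 at 24 h (SE 0.09, edgeR adjusted p = 0.00452) and -0.72 at 72 h (SE 0.09, edgeR adjusted p = 1.37e-06), or 60.8% of sham. The 6 h call was lost without sham replicate 2 or 3 or replicate 1 at 6 h (-0.24 without the last, edgeR adjusted p = 0.104). Under library total scaling the changes were -0.15 at 24 h (edgeR adjusted p = 0.223) and -0.13 at 72 h (edgeR adjusted p = 0.251), and neither was called. Nrf1 and Tfam thus differed in direction at 6, 24 and 72 h against the same sham libraries.

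The order of levels was read in FPKM, which divides by gene length, after TMM scaling. In sham, Esrra was highest at 105 ± 2.33 FPKM (SD, n = 3), followed by Ppargc1a (11.3 ± 0.152), Tfam (9.68 ± 0.225) and Ppard (8.42 ± 0.117), each apart from its neighbours. Ppara (5.56 ± 0.643) and Esrrb (5.49 ± 0.0565) overlapped, as did Esrrg (4.14 ± 0.229), Pparg (3.92 ± 0.118) and Ppargc1b (3.73 ± 0.604) in turn. Nrf1 was lowest, at 1.38 ± 0.0469 FPKM. At 72 h Esrra was still highest (44.2 ± 5.73 FPKM), but Ppard (7.06 ± 0.443) and Tfam (5.89 ± 0.0838) came next. Pparg (3.2 ± 0.207) and Ppargc1a (3.16 ± 0.443) now overlapped, and Nrf1, Esrrg and Esrrb shared the lowest places at 1.71, 1.67 and 1.51 FPKM. The deposited lengths for Ppard (4631 bases) and Esrra (2539 bases) are shorter than their GENCODE M21 exon unions (7514 and 4387 bases), and the order depends on this. With the exon unions, tried after the data were seen, Ppard was at 5.19 FPKM in sham, below Ppara and Esrrb, and at 4.35 FPKM at 72 h, below Tfam, while Esrra stayed highest (60.9 and 25.6 FPKM).

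**Figure D4:**
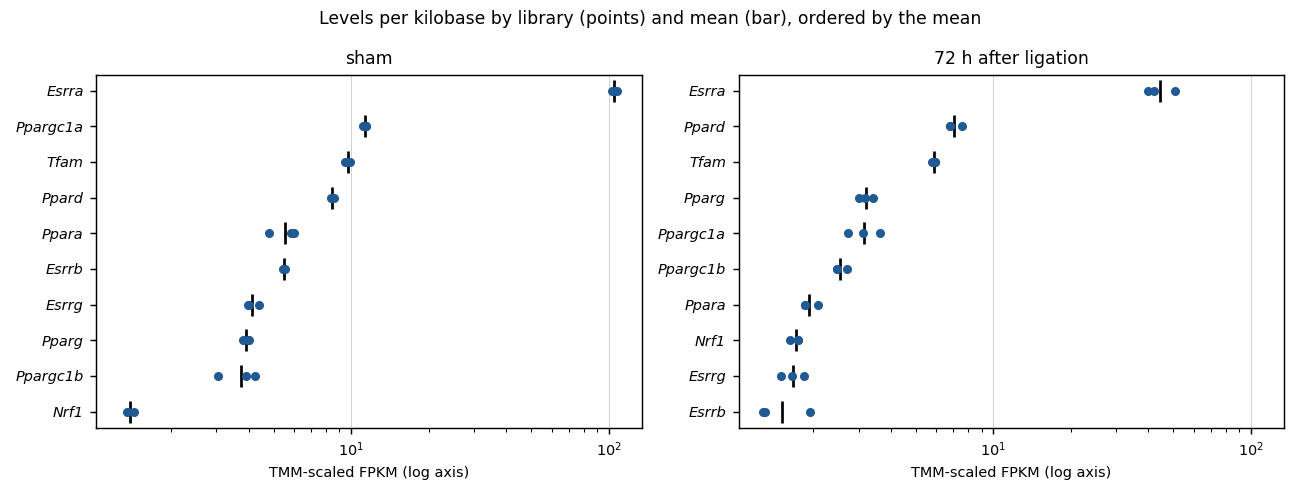
TMM-scaled FPKM of the 10 regulators (log x axis) in sham (left) and at 72 h (right), ordered by the group mean, with 1 point per mouse and a bar for the mean. Esrra is highest in both, at 105 and 44.2 FPKM, while Ppargc1a is next to Esrra in sham and level with Pparg at 72 h, and Nrf1 is lowest in sham.

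The genes most like 4 of the members over the 18 libraries were named by Pearson's r of log2 CPM, as a description across libraries that share the group differences. For Ppara they were Fam20b (0.978), Abhd5 (0.975) and Trappc10 (0.975). For Ppargc1a they were Homer2 (0.986), Mfn1 (0.985) and Fhod3 (0.984), and for Esrra Smpd1 (0.992), Ppp6r2 (0.991) and Jph2 (0.991). For Pparg they were Hipk1 (0.947), Sgms1 (0.939) and Tsc22d1 (0.939).

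Partners of these regulators moved in both directions. The list of 26 partners and co-regulators held RXRs, coactivators, corepressors, other transcription factors and kinase subunits. Of these 26 genes, 4 were higher and 3 lower at 6 h, 5 and 9 at 24 h, and 5 and 15 at 72 h. The shares called, 26.9%, 53.8% and 76.9%, stood beside 28.4%, 43.8% and 66.4% of all genes. Their median log2 changes were 0.01, -0.2 and -0.39. In all, 4 were called at 6 h without replicate 1 at 6 h, 12 without replicate 2 at 6 h, and 9 at 24 h without replicate 3 at 24 h. Rxrg, an RXR partner of the PPARs, dropped from 57, 52.8 and 55.7 CPM in sham to 24.7, 38.5 and 33.8 CPM at 6 h and 19, 13.4 and 14.9 CPM at 72 h (log2 change -1.81, SE 0.22, edgeR adjusted p = 2.35e-06). Its 6 h call was lost without replicate 1 at 6 h (-0.61, edgeR adjusted p = 0.0752). Rxra changed by -0.35, -0.45 and -0.45 at 6, 24 and 72 h, all called, but by 0.13 at 72 h under library total scaling. Perm1, a muscle regulator induced by PGC-1 and ERR, was already lower at 6 h, at 156, 168 and 166 CPM against 285, 299 and 289 CPM in sham (-0.83, SE 0.21, edgeR adjusted p = 0.00704). It ended at 84.2, 57.5 and 70 CPM at 72 h (-2.05, SE 0.21, edgeR adjusted p = 3.07e-07), and Lpin1, a coactivator of PPARA, fell by 1.53 on the log2 scale.

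Pprc1, the PGC-1 family gene outside the set, was called higher at 6, 24 and 72 h. It was at 12.3, 11.5 and 13.9 CPM in sham, 45.2, 26.6 and 26.2 CPM at 6 h, 19.8, 21.7 and 37.5 CPM at 24 h, and 20.9, 22.6 and 23.9 CPM at 72 h, with no overlap with sham. The log2 change was 1.38 at 6 h (SE 0.23, edgeR adjusted p = 0.000394), 1.06 at 24 h and 0.84 at 72 h. Without replicate 3 at 24 h the 24 h change was 0.72, still called (edgeR adjusted p = 0.00629). Sirt1, a deacetylase of PGC-1α, was called higher at 6 h (0.62, SE 0.12, edgeR adjusted p = 0.000834). Prkaa1, a kinase subunit that signals low energy, was at 0.58 at 72 h, and Gabpb1, a subunit of nuclear respiratory factor 2, at 0.46, both called. Its DNA-binding partner Gabpa changed by -0.22 at 72 h (edgeR adjusted p = 0.0307), but by 0.36 under library total scaling.

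Of 30 PPAR target genes listed, 8 were higher and 0 lower at 6 h: Pdk4, Angptl4, Cpt1a, Ucp3, Plin2, Plin5, Pnpla2 and Cd36. The 6 h count was 5 without sham replicate 1, sham replicate 2 or replicate 3 at 6 h. At 24 h 3 were higher and 19 lower, and at 72 h 2 were higher and 26 lower, with median log2 changes of 0.1, -0.58 and -1.77. The shares called were 26.7%, 73.3% and 93.3%, beside 28.4%, 43.8% and 66.4% of all genes, so at 6 h the share was near that of all genes. Their summed level was 123% of sham at 6 h, 71.2% at 24 h and 29.9% at 72 h. At 10 min and 1 h 0 were called, with 5 and 3 at an unadjusted p under 0.05 and with 3 at 10 min by DESeq2. Pdk4, the kinase that shuts off pyruvate oxidation, was at 167, 133 and 106 CPM in sham and 2370, 2210 and 2950 CPM at 6 h (log2 change 4.21, SE 0.49, edgeR adjusted p = 0.000149). It then measured 328, 122 and 573 CPM at 24 h, overlapping sham, and 70.1, 60 and 60.5 CPM at 72 h, a change of -1.09 that was not called. The 24 h call of 1.33 held in 4 of 18 fits without 1 library and was 0.74 without replicate 3 at 24 h (edgeR adjusted p = 0.288).

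Lipid storage and uptake genes differed among the PPAR targets. Angptl4, a lipase inhibitor, was at 1.06, 1.56 and 1.78 CPM in sham, 110, 75.9 and 169 CPM at 6 h and 36.7, 42.4 and 50 CPM at 72 h, all above sham (log2 change 4.86 at 72 h, SE 1.2, edgeR adjusted p = 0.0021). Plin2, which coats lipid droplets, was at 53.7, 54.3 and 54.9 CPM in sham and 215, 236 and 272 CPM at 72 h (2.15, SE 0.32, edgeR adjusted p = 4.24e-05). Macrophages also store lipid in droplets, and their markers summed to 1420% of sham at that time; their part in the Plin2 level was not tested. Ucp3, a mitochondrial carrier, went from 18.8, 19.2 and 17.7 CPM to 49.1, 104 and 105 CPM at 6 h and 8.93, 6.64 and 6.33 CPM at 72 h. Cd36, a fatty acid transporter, rose by 0.61 at 6 h and fell by 1.23 on the log2 scale at 72 h, both called. The 72 h call of Ucp3 was lost without any 1 sham library or replicate 2 or 3 at 72 h (edgeR adjusted p up to 0.0873).

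Apart from Cpt1a, oxidation enzymes among the PPAR targets were level at 6 h and then low. Cpt1a was at 41.8, 45.5 and 40.6 CPM in sham and 48.9, 65 and 59.5 CPM at 6 h, where it was called higher. At 72 h it measured 50.3, 56.8 and 55.8 CPM, above all sham values but not called. Acadm was at 1210, 1320 and 1140 CPM in sham, 1090, 1170 and 1210 CPM at 6 h, 946, 611 and 613 CPM at 24 h, and 349, 272 and 267 CPM at 72 h. Its log2 change was -0.76 at 24 h and -2.05 at 72 h (SE 0.15, edgeR adjusted p = 2.12e-09). At 72 h the oxidation enzymes Eci1 and Acaa2 changed by -2.17 and -2.13, both called. Cpt1b, the muscle gate for fatty acids into mitochondria, changed by -1.99, which is uncertain because the gene lies within a read-through gene on the same strand.

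**Figure D5:**
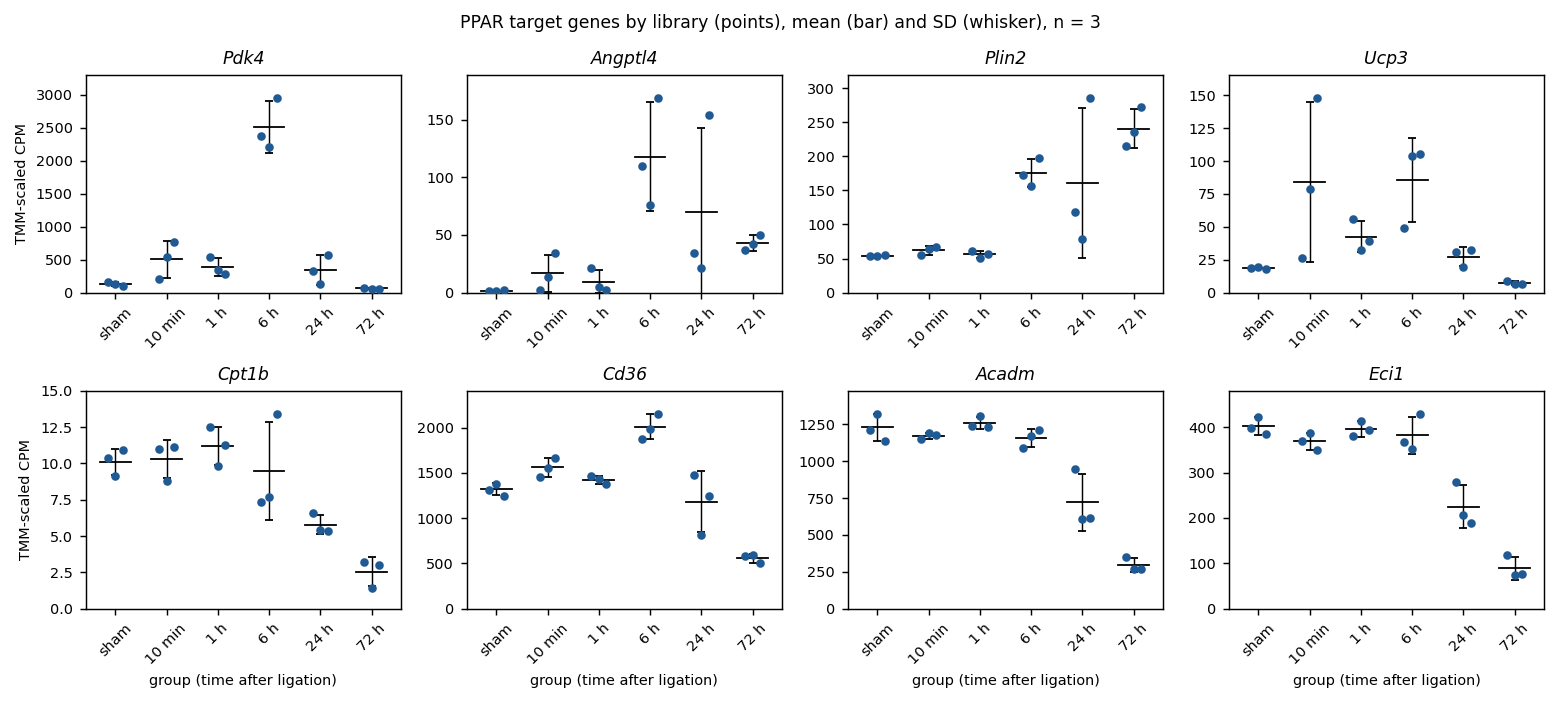
TMM-scaled CPM of 8 PPAR target genes in each library (y axis from 0, own scale for each gene) in each group (x axis), with 1 point per mouse, a bar for the mean and a whisker for the SD (n = 3). Pdk4, Angptl4 and Ucp3 peak at 6 h by the mean, Plin2 is highest at 72 h, and Acadm and Eci1 are lowest at 72 h.

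ERR and PGC-1 target genes fell together from 24 h on. Of 30 genes of the tricarboxylic acid cycle, respiratory chain and related functions, 0 were called at 6 h (0 at an unadjusted p under 0.05, 0 by DESeq2), and 30 were lower at 24 h and at 72 h. Of all genes, 28.4% were called at 6 h, 43.8% at 24 h (20.2% lower) and 66.4% at 72 h (32.2% lower). Under the other settings, 26 to 30 of the list were called at 24 h. The median log2 changes of the list were 0.03, -0.6 and -1.71. Cs, citrate synthase, was at 1190, 1130 and 1130 CPM in sham, 924, 728 and 617 CPM at 24 h, and 408, 316 and 322 CPM at 72 h (-1.72, SE 0.13, edgeR adjusted p = 4.9e-09). Cycs, whose promoter is shown above, changed by -1.29, and Ckmt2, mitochondrial creatine kinase, by -2.04. The heart and muscle forms of cytochrome oxidase subunits, Cox7a1 and Cox6a2, had the largest falls of the list at 72 h, with log2 changes of -2.63 and -2.23. Fh1 and Ndufa9 had the smallest adjusted p at 24 h, with changes of -0.64 and -0.61. Esrra, Ppargc1a and these targets shared the fall of the cardiomyocyte marker sum, and its part was not tested.

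A list of 18 genes was drawn up for the transcription and copying of mitochondrial DNA, and it also held Lrpprc and Slirp, which act on mitochondrial mRNA. Of these 18, 0 were higher and 6 lower at 6 h, 1 (Rnaseh1) and 6 at 24 h, and 0 and 13 at 72 h. The median log2 changes were -0.25, -0.27 and -0.65. The shares called, 33.3%, 38.9% and 72.2%, were near those of all genes (28.4%, 43.8% and 66.4%). At 6 h, 1 was called without replicate 1 at 6 h, and 1, 3 and 0 without sham replicates 1, 2 and 3. At 24 h, 3 were called without that group's replicate 3, and 4 without its replicate 2 or any 1 sham library. Polrmt was at 36.8, 35.5 and 34.6 CPM in sham and 21.5, 16.8 and 19 CPM at 72 h (-0.90, SE 0.11, edgeR adjusted p = 1.01e-06). Tfb2m, the partner of the polymerase at its promoters, changed by -1.06, the helicase gene Twnk by -1.24 and Lrpprc, which stabilises mitochondrial mRNA, by -1.70 at 72 h. Mterf2 was lower from 6 h on (-0.78, -0.91 and -1.53), although its 6 h call was lost without replicate 1 at 6 h (edgeR adjusted p = 0.105). Calls at 6 h for Mterf3 (-0.35) and Mterf4 (-0.49) were lost without the same library, and Mterf4 at 72 h, -0.39 and called, was 0.2 under library total scaling. The 13 protein-coding transcripts of the mitochondrial genome summed to 108%, 74.9% and 26% of sham at 6, 24 and 72 h, and all 13 were called lower by 72 h.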

How the data were processed

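Per the submitters' processing notes, the tools were cutadapt 1.18, HISAT2 2.1.0 and featureCounts, with the mm10 build; annotation and strand are not given in the sources used here. The authors deposited whole-number read counts per Ensembl gene for 18 libraries (18.2 to 25.1 M counts, M for mega) and FPKM values, which are those counts divided by a gene length and the library's total; the deposited FPKM of replicates 2 and 3 at 6 h were swapped. Symbols and positions came from GENCODE M21.

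Counts were tested in R 4.3.3 with edgeR 4.0.16 (filterByExpr, TMM, robust quasi-likelihood fit of all 18 libraries, 1 mean per group), two-sided, with Benjamini-Hochberg adjustment over 16311 genes. Each time was set against sham and the time before, and all groups in an F test. 72 h against 6 h was added after the data were seen. Libraries are from separate mice, with no molecular identifiers. Alternatives were RLE and library total scaling, other filters, a replicate block, only the 6 libraries compared, DESeq2 1.42.0, limma 3.58.1 on log2(FPKM + 1) and log2(FPKM + 0.1), and leaving out each library. Replicate numbers did not pair the libraries (mean r 0.02).

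The members and the gene lists were chosen with earlier results of these data known. All members were named. In each other list the rule named the 3 called genes with the largest rise and the 3 with the largest fall at 72 h, the 2 with the smallest adjusted p at 6 h and at 24 h, and a few fixed for their role; Fabp4 and Lipe, and gene names given beside a count, were chosen after their values were seen. A gene that the rule names is not reported here.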

Additional observations from a re-analysis of the deposited data

Results flagged for a closer look

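Ppard moved in opposite directions at 6 h and at 72 h against the same sham libraries, and the difference between these times was tested. Its 6 h libraries (52.9, 44.7 and 45 CPM) and 72 h libraries (35, 31.5 and 31.5 CPM) did not overlap. The log2 change from 6 to 72 h was -0.54 (SE 0.1, edgeR adjusted p = 9.62e-05), in a comparison added after the data were seen, in which 63% of all genes were called. In the same comparison Ppargc1b and Nrf1 were not called, and the other 8 members were lower. Under library total scaling the 72 h change of Ppard against sham was 0.33, so the opposite direction rests on the scaling.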

How the results depend on the processing

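Counts of called genes are given here in the order of the settings named. With scaling by library totals, limma on log2(FPKM + 1) and limma on log2(FPKM + 0.1), none of which corrects for library make-up, directions reversed at 72 h against sham for Ppard (0.33, 0.3 and 0.33), Ppargc1b (0.04, 0.04 and 0.05), Rxra (0.13, 0.12 and 0.13), Gabpa (0.36, 0.32 and 0.36), Sirt1 (0.32, 0.23 and 0.31) and Mterf4 (0.2, 0.13 and 0.19). From 24 to 72 h they reversed for Ppard (0.16, 0.14 and 0.16), Nrf1 (0.34, 0.24 and 0.34) and Tfam (0.02, 0.03 and 0.03). Reversals are listed only where the main fit (TMM, all 18 libraries) or the other setting called the gene. The same settings called 3, 3 and 3 members at 24 h, 1, 1 and 1 from 6 to 24 h, 5, 5 and 5 from 24 to 72 h, 9, 8 and 8 partners at 24 h, and 4, 4 and 4 mitochondrial DNA factors at 24 h. With only the 6 libraries compared, 1 member was called at 10 min (Esrrg), 1 at 1 h (Ppargc1b), 1 at 24 h and 1 from 6 to 24 h, with 2 PPAR targets at 1 h, 2 mitochondrial DNA factors at 6 h and 4 at 24 h. With no filter, 1 member was called at 6 h, with 2 mitochondrial DNA factors at 6 h and 4 at 24 h. DESeq2 called 3 PPAR targets at 10 min. The cause of these differences was not tested.

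With a replicate block, 4 members were called at 6 h, 6 at 24 h, 9 at 72 h, 5 from 1 to 6 h, 4 from 6 to 24 h, 8 from 24 to 72 h and 10 in the F test, so no count moved by over 1.5 times. Esrrb was gained at 24 h (-0.46, edgeR adjusted p = 0.0362). Libraries share only a replicate number: same-numbered libraries of different groups deviated together in 4 of 45 pairs (r over 0.1).

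Leaving out 1 library gave 2 to 5 members at 6 h, 1 to 7 at 24 h, 7 to 9 at 72 h, 2 to 6 from 1 to 6 h, 1 to 4 from 6 to 24 h and 7 to 8 from 24 to 72 h. It gave 4 to 12, 9 to 16 and 18 to 22 partners at 6, 24 and 72 h, 5 to 10, 17 to 24 and 27 to 30 PPAR targets, 28 to 30 ERR and PGC-1 targets at 24 h, and 0 to 8, 3 to 9 and 11 to 14 mitochondrial DNA factors. Members at 6 h numbered 2 without sham replicate 2 or 3 or replicate 1 at 6 h, and from 6 to 24 h 1 without replicate 2 at 24 h. Members from 1 to 6 h numbered 2 without replicate 2 at 1 h or replicate 1 at 6 h. PPAR targets at 6 h numbered 5 without sham replicate 1 or 2 or replicate 3 at 6 h. Partners numbered 4 without replicate 1 at 6 h, 12 without replicate 2 at 6 h, and 9 at 24 h without replicate 3 at 24 h. Mitochondrial DNA factors at 6 h numbered 1, 3 and 0 without sham replicate 1, 2 and 3, and at 24 h 4 without any 1 sham library or replicate 2 at 24 h. Over all comparisons of single members, 718 values under the other settings kept their side of the threshold, 56 lost the call and 21 gained it. A further 15 reversed, with a call in the main fit or the other setting. Without 1 library these were 1551, 57, 12 and 0. Values with no call in either fit count as kept even where the sign changed. Pparg at 72 h against sham is such a case (-0.29, and 0.29 under library total scaling). All 10 members passed the filter on low counts, and the 3 mice a group limit the precision of small changes such as those of Ppard.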
